A study of Mus musculus with 24 samples.

Results

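Messenger RNA of 8 CXC chemokine genes was followed through myocardial ischemia and reperfusion in mouse hearts. The genes were Cxcl1, Cxcl2, Cxcl3, Cxcl5, Ppbp, Pf4, Cxcl12 and Cxcl16, chosen by symbol from the 46078 genes counted, and all 8 passed the filter on low counts. Hearts came from wild-type C57BL/6 mice, an inbred laboratory strain, after sham surgery, after 45 min of ischemia alone, or after 45 min of ischemia with 0.5, 1, 1.5, 3, 6 or 12 h of reperfusion. Each of the 8 groups held 3 RNA-seq libraries, 24 in all. Age, sex, the part of the heart taken and whether each library was a separate mouse are not given in the labels. A p-value here therefore sets a difference against the scatter of libraries within groups, pooled over all 8 groups, part of which may be technical.

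CXC chemokines are small secreted proteins that guide leukocytes along a gradient. Those with the residues glutamate, leucine and arginine before the first cysteines, among them Cxcl1, Cxcl2, Cxcl3, Cxcl5 and the processed product of Ppbp, attract neutrophils through the receptor Cxcr2. Pf4 (platelet factor 4) lacks that motif and is stored with Ppbp in platelet granules, Cxcl12 guides and retains cells that carry Cxcr4, and Cxcl16 is a membrane-anchored ligand of Cxcr6. In an injured heart, neutrophils are the first leukocytes to arrive in number, and transcription of the inducible members of the family is a textbook target of NF-kappaB.

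On GRCm38, with GENCODE vM21 gene models, 6 of the 8 genes lay on the + strand of chromosome 5 within 146.578 kb. Their order was Cxcl5 (chr5:90759360-90761624), Ppbp (chr5:90768518-90770063), Pf4 (chr5:90772435-90773383), Cxcl3 (chr5:90786103-90789600), Cxcl1 (chr5:90891241-90893115) and Cxcl2 (chr5:90903871-90905938). Cxcl12 lay at chr6:117168535-117181367 on the + strand and Cxcl16 at chr11:70453983-70459984 on the - strand. The family is one of near relatives, yet 97.2% (Cxcl3) to 100% (Ppbp) of each gene's reads had mapped to 1 place. Only Cxcl16 shared exon bases with another counted gene, 552 bases with Zmynd15 on the opposite strand, so with the strand setting not given its reads are of uncertain origin there.

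RefSeq promoter windows (GRCm38.p6) were found for 6 of the 8 genes, all but Cxcl5 and Cxcl16, and the 250 bases before the start were searched. A kB motif, the site class that NF-kappaB binds, was searched on both strands as GGG, any 3 bases and TTCC, and was present in Cxcl1, Cxcl2 and Cxcl3, against 4.65% of 32851 windows. The AP-1 motif TGANTCA, also on both strands, was present in Ppbp alone of the 6 (6.75% of windows), and TATAAA on the gene strand in Cxcl3 and Ppbp (7.59% of windows). The 150 bases before the RefSeq start of the 3 genes with a kB match are shown because these genes differed in when they rose, with kB and TATAAA matches in capitals.
Cxcl1 (chr5:90891095-90891244, + strand): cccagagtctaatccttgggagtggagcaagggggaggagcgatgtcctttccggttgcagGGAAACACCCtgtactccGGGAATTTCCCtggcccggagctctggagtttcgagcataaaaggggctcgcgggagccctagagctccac
Cxcl2 (chr5:90903749-90903898, + strand): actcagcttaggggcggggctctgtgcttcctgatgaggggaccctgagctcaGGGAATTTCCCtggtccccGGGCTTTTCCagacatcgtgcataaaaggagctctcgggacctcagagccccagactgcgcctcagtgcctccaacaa
Cxcl3 (chr5:90785951-90786100, + strand): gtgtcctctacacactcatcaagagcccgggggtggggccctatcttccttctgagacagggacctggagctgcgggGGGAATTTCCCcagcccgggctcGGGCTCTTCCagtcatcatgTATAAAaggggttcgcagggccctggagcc
The run GGGAATTTCC stood in all 3 windows, 71 to 62 bases before the start in Cxcl1, 97 to 88 in Cxcl2 and 73 to 64 in Cxcl3, and it overlaps its own match on the other strand by all but 1 base. A match in letters is a description of the window and not a measured binding site.

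The libraries held 13407465 to 17181458 uniquely mapped reads in genes, and a floor of 3 reads corresponded to 0.175 to 0.224 CPM (CPM are reads scaled to library size, here with edgeR's TMM factors). Reads marked as duplicates made up 39.2% to 54.5% of them and mitochondrial genes 19.0% to 33.2%, and 0 pairs of libraries were identical. By chi-square per degree of freedom over genes, 8 of the 24 libraries lay nearest to a library of another group. Those farthest from their own group were ischemia replicate 3 (58.3 and 66.6, but 8.20 from 0.5 h replicate 2) and 1 h replicate 1 (41.5 and 56.5). Without 1 h replicate 1, Cxcl1 and Cxcl2 were still called at 1 h against sham (adjusted p = 8.96e-06 and 2.31e-05), and Cxcl5 and Pf4 were not. Cardiomyocyte markers summed to between 44970 and 84170 CPM in every library, which is the pattern of heart tissue. Changes are log2 fold changes ± SE from edgeR's quasi-likelihood test, and a gene was called at a Benjamini-Hochberg adjusted p under 0.05 over 15128 tested genes. Levels are given per library in the order of the replicate numbers, or as mean ± SD with n = 3.

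Of the 8 genes, 7 took 1 of 3 time courses. Cxcl1 and Cxcl2 were already higher after ischemia alone and at every reperfusion time, Cxcl5 and Cxcl3 rose later, Cxcl5 with its highest level at 6 h, and Ppbp, Pf4 and Cxcl12 were higher at 6 h, 12 h or both. Cxcl16 was called in none of the 13 comparisons. The test of any change across the 8 groups called 7 of the 8 genes, all but Cxcl16 (adjusted p = 0.333), against 64.3% of all genes.

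Against sham, 2 of the 8 genes were higher after ischemia alone, where 0.0925% of all genes were called higher (14 genes, with 1296 at an unadjusted p under 0.05). At 0.5 h 2 were higher (7.43% of all genes), at 1 h 4 (7.46%), at 1.5 h 3 (4.55%), at 3 h 4 (18.4%), at 6 h 6 (24.6%) and at 12 h 7 (16.9%). None of the 8 was called lower than sham at any time, where 0% of all genes were lower after ischemia alone, 4.48% at 0.5 h, 3.41% at 1 h, 2.99% at 1.5 h, 16.9% at 3 h, 22.9% at 6 h and 14.9% at 12 h. The median log2 fold change of the 8 genes was 3.36 at 6 h and 2.69 at 12 h, against -0.01 and 0.01 over all genes tested. All 7 comparisons share the same 3 sham libraries, and in whole tissue more cells of a type and more RNA per cell cannot be told apart.

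**Figure D1:**
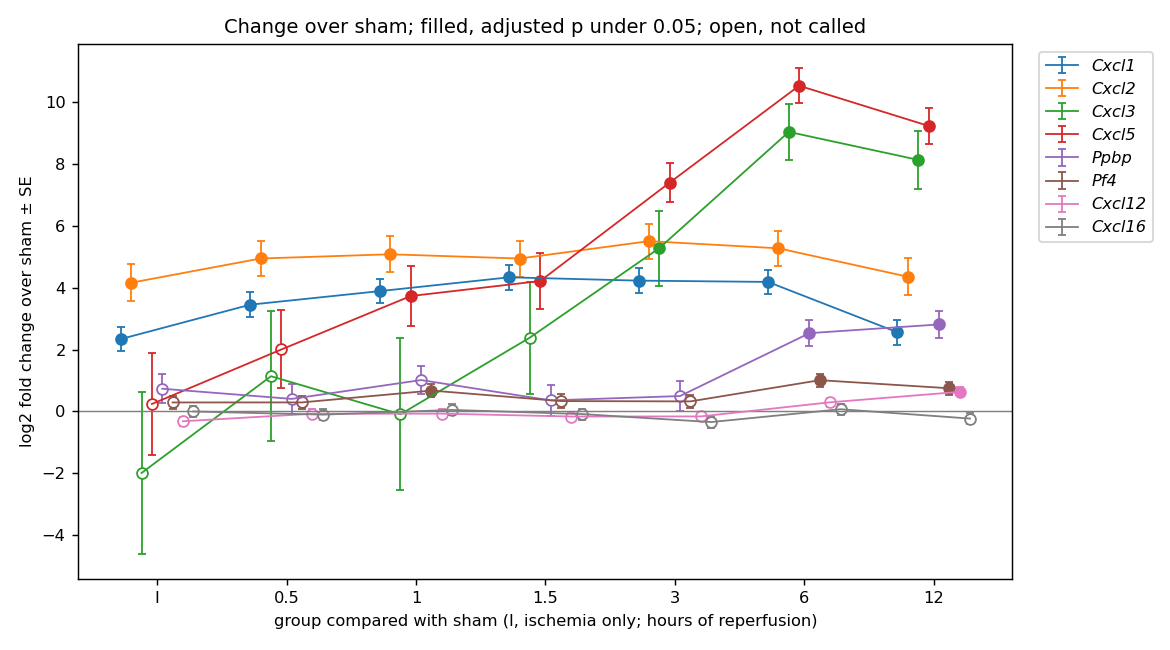
Log2 fold change over sham (vertical axis, bars ± SE) of the 8 genes after ischemia alone (I) and at each reperfusion time in hours, with filled points called at an adjusted p under 0.05 and open points not called. Cxcl1 and Cxcl2 are called from ischemia onward, whereas Cxcl5 is called from 1 h and Cxcl3 from 3 h; the fitted heights of Cxcl3 and Cxcl5 rest on 1 and 3 sham reads and depend on the prior count, so they are no measure of size.

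Cxcl1, a ligand of Cxcr2, was low in sham hearts and rose within the ischemic period. It had 9.92, 16.1 and 12.7 CPM after ischemia alone, against 1.35, 1.71 and 4.80 CPM in sham hearts. The lowest ischemic library was above the highest sham library, sham replicate 3, and the change was 2.34 ± 0.40 (adjusted p = 0.0105). The call was lost with limma-voom (adjusted p = 0.192), without sham replicate 1 (0.116) and without sham replicate 2 (0.152). Ischemia replicate 3, with 19.0% mitochondrial reads beside 30.2% and 29.7%, lay in the middle of the group for Cxcl1, and without it the change was 2.36 ± 0.45 (adjusted p = 0.0412).

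During reperfusion Cxcl1 stayed above sham at each time. Its libraries had 31.2, 15.98 and 36.5 CPM at 0.5 h, 43.6, 32.0 and 37.9 CPM at 1 h, and 55.1, 53.9 and 45.6 CPM at 1.5 h. They had 42.9, 55.8 and 44.9 CPM at 3 h, 38.1, 67.3 and 34.0 CPM at 6 h, and 8.46, 19.8 and 16.7 CPM at 12 h. The change over sham was largest at 1.5 h (4.34 ± 0.40, adjusted p = 1.93e-07) and was 4.19 ± 0.39 at 6 h (adjusted p = 1.33e-08). In order of mean level the times were 1.5 h, 3 h, 6 h, 1 h, 0.5 h, 12 h, ischemia and sham, and each neighbouring pair overlapped in range except ischemia and sham. At 12 h the level was 14.98 ± 5.86 CPM, against 46.5 ± 18.1 CPM at 6 h, a fall of 1.63 on the log2 scale (log2 fold change -1.63 ± 0.32, adjusted p = 0.00163), with no overlap between the 2 sets of libraries.

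Cxcl2, coded next to Cxcl1 and another Cxcr2 ligand, started from a lower level per length, 0.111 ± 0.05 RPKM in sham hearts (RPKM are the authors' reads per gene length and depth), where Cxcl1 had 0.981 ± 0.68 RPKM. It had 3.22, 5.44 and 9.16 CPM after ischemia alone, against 0.450, 0.342 and 0.160 CPM (7, 5 and 2 reads) in sham hearts. The groups were far apart, the change was 4.17 ± 0.60 (adjusted p = 0.00145), and only limma-voom of the 33 alternatives lost the call (adjusted p = 0.379). Ischemia replicate 3 was the highest, and without it the change was 3.69 ± 0.64 (adjusted p = 0.0176). Levels were 12.8, 4.19 and 14.02 CPM at 0.5 h, 10.4, 8.43 and 15.3 CPM at 1 h, and 10.5, 12.3 and 8.17 CPM at 1.5 h. They were 15.3, 13.02 and 17.4 CPM at 3 h, 10.1, 21.0 and 7.91 CPM at 6 h, and 6.04, 6.77 and 7.79 CPM at 12 h. The plateau from 0.5 to 6 h held no step between neighbouring times that passed the test. Its change over sham was largest at 3 h (5.51 ± 0.57, adjusted p = 2.06e-07) and was still 4.36 ± 0.59 at 12 h (adjusted p = 6.19e-06). The 12 h libraries all lay below the 6 h libraries, but that difference was -0.92 ± 0.37 and did not pass (adjusted p = 0.105), except with no filter on low counts.

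**Figure D2:**
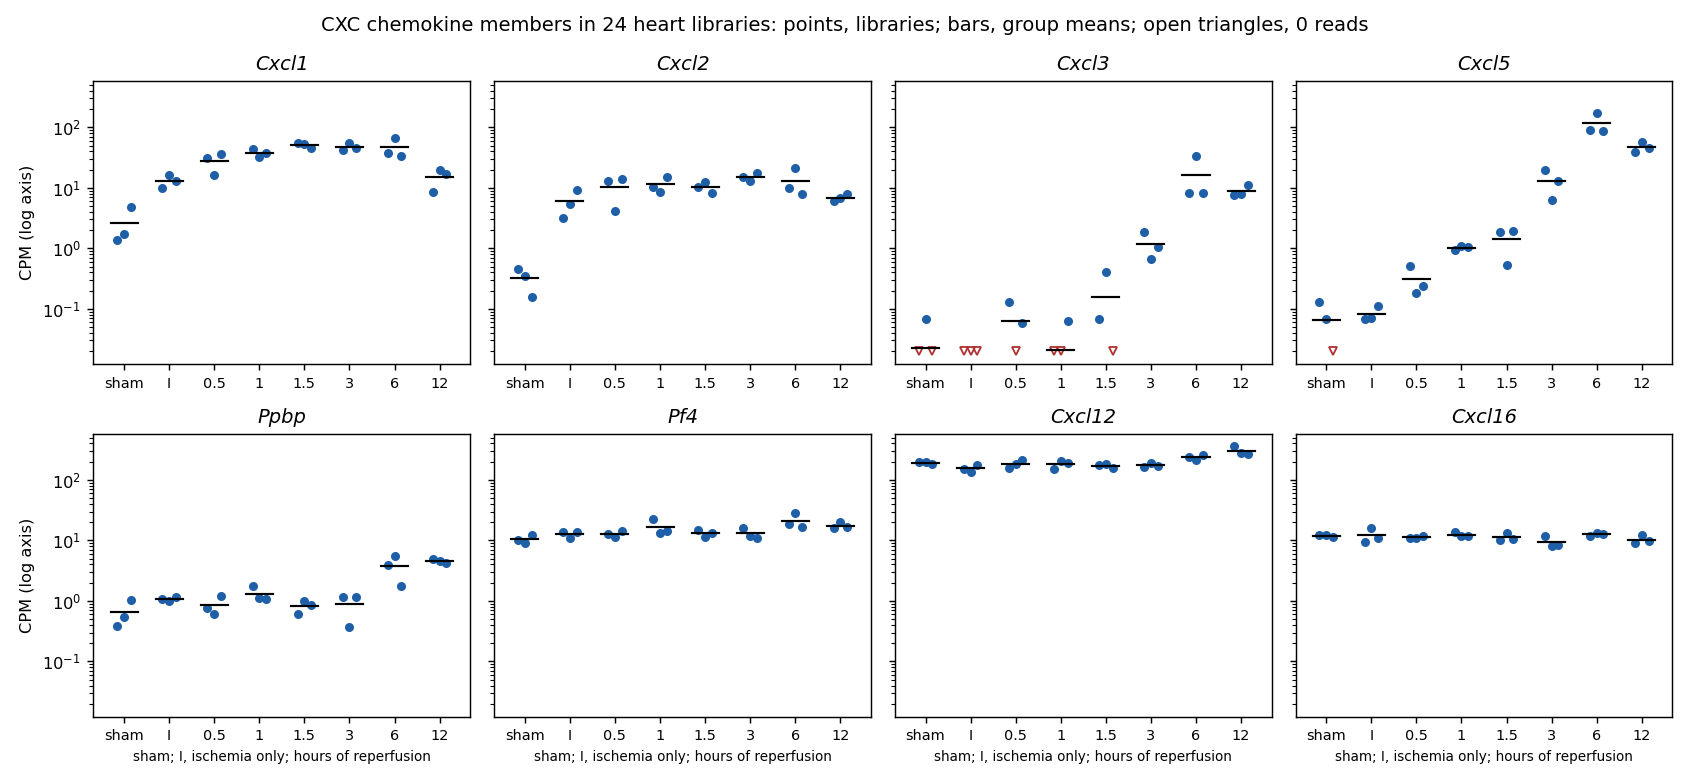
CPM on a log axis of the 8 genes in each library (points), with group means as bars and libraries with 0 reads as open triangles at the foot; groups run from sham through ischemia alone (I) to 12 h of reperfusion. Cxcl1 and Cxcl2 step up at ischemia, Cxcl3 and Cxcl5 between 1.5 and 6 h, and the lower row shows smaller changes, with 12 h Ppbp at 4.57 ± 0.34 CPM and Cxcl16 group means between 9.46 and 12.7 CPM.

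Cxcl3 was near absent until 3 h. Its reads over the 3 libraries of a group numbered 1 in sham hearts, 0 after ischemia alone, 3 at 0.5 h, 1 at 1 h and 7 at 1.5 h, which is at or near the floor. It then had 31, 9 and 16 reads at 3 h (1.87, 0.666 and 1.04 CPM), 140, 545 and 130 reads at 6 h (8.28, 33.2 and 8.10 CPM), and 140, 154 and 194 reads at 12 h (7.69, 7.78 and 11.0 CPM). The 3 h libraries were all above the 1.5 h libraries and all below the 6 h libraries. Cxcl3 codes for a Cxcr2 ligand whose gene lies between Pf4 and Cxcl1.

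Against the single sham read, the ratio of Cxcl3 CPM was 52.5 at 3 h (exact 95% counting interval 9.05 to 2111, adjusted p = 0.00188), 705 at 6 h (126 to 27860, adjusted p = 4.98e-08) and 375 at 12 h (66.9 to 14830, adjusted p = 9.6e-07). The interval covers counting error only, and it is wide because of that read. Between times, Cxcl3 was 2.90 ± 0.86 higher at 3 h than at 1.5 h (log2, adjusted p = 0.0373) and 3.76 ± 0.52 higher at 6 h than at 3 h (adjusted p = 2.02e-05). The step to 3 h was lost with limma-voom (adjusted p = 0.171), with duplicates removed (0.0784), without 1.5 h replicate 1 (0.142) or 3 (0.119), and without 3 h replicate 1 (0.165) or 3 (0.0786). With only the 2 groups in the fit, Cxcl3 did not pass the filter on low counts and was not tested. Replicate 2 of 6 h held most of the 6 h reads, the 12 and 6 h ranges overlapped, and without that replicate the means were 8.83 CPM at 12 h and 8.19 CPM at 6 h.

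Cxcl5, known in mice as LIX and a Cxcr2 ligand of stromal and epithelial cells, reached the highest level per length of the chromosome 5 genes at 6 h, 48.9 ± 18.6 RPKM. It had 2, 1 and 0 reads in sham libraries, 1, 1 and 2 after ischemia alone, and 8, 3 and 4 at 0.5 h. It then had 13, 18 and 17 reads at 1 h, 28, 8 and 29 at 1.5 h, and 329, 86 and 203 at 3 h. At 6 h it reached 1517, 2782 and 1417 reads (89.7, 170 and 88.3 CPM), and at 12 h it had 703, 1123 and 813 reads (38.6, 56.7 and 46.2 CPM). The 6, 12, 3 and 1.5 h groups followed each other in that order with no overlap, and replicate 2 was the highest library at 6 h and the lowest at 3 h.

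Against the 3 sham reads, the ratio of Cxcl5 CPM was 14.7 at 1 h (exact 95% counting interval 4.74 to 73.8, adjusted p = 0.0162), 20.6 at 1.5 h (6.75 to 103, adjusted p = 0.00489) and 193 at 3 h (65.8 to 940, adjusted p = 1.96e-08). It was 1647 at 6 h (563 to 7990, adjusted p = 5.43e-12) and 676 at 12 h (231 to 3278, adjusted p = 1.3e-10). The call at 1 h was lost with limma-voom (adjusted p = 0.119), with duplicates removed (0.0544), and without sham replicate 2 (0.0576), sham replicate 3 (0.0617) or 1 h replicate 1 (0.0514), and that at 1.5 h with limma-voom (0.114). Cxcl5 rose by 3.18 ± 0.38 between 1.5 and 3 h (adjusted p = 2.46e-05) and by 3.13 ± 0.30 between 3 and 6 h (adjusted p = 3.02e-07). At 12 h it was lower than at 6 h (log2 fold change -1.30 ± 0.28, adjusted p = 0.00319), and that call was lost without 6 h replicate 2 (-0.92, adjusted p = 0.0550).

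Ppbp, which codes for the platelet basic protein, was low throughout and was called at the last 2 times. It had 3.90, 5.61 and 1.74 CPM at 6 h and 4.89, 4.60 and 4.21 CPM at 12 h, against 0.385, 0.548 and 1.04 CPM (6, 8 and 13 reads) in sham hearts. Both sets lay wholly above sham. The change was 2.54 ± 0.43 at 6 h (adjusted p = 4.01e-05) and 2.82 ± 0.43 at 12 h (adjusted p = 2.29e-05). In the groups from ischemia to 3 h the libraries ran from 0.370 to 1.76 CPM and none of those 5 groups was called.

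Pf4, coding for platelet factor 4, had 18.3, 28.4 and 16.5 CPM at 6 h and 16.04, 19.9 and 16.8 CPM at 12 h, against 10.3, 9.04 and 12.1 CPM in sham hearts. No sham library reached the lowest of them, and the sham level per length was second only to that of Cxcl12. The change was 1.01 ± 0.21 at 6 h (adjusted p = 0.000462) and 0.75 ± 0.21 at 12 h (adjusted p = 0.00925), and the 12 h call was lost without sham replicate 2 (0.0523). The 1 h libraries had 22.8, 13.2 and 14.3 CPM, of which replicate 1 stood high. That change, 0.68 ± 0.22 (adjusted p = 0.0445), was lost under 11 of the 33 alternatives, and without 1 h replicate 1 its adjusted p was 0.287.

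Other platelet and megakaryocyte markers did not move as one with Ppbp and Pf4. Of 8 tested of 14, 4 were higher than sham at 3 h (18.4% of all genes), and 2 were higher and 1 lower at 6 h and again at 12 h, where 24.6% and 16.9% of all genes were higher. At 3 h the platelet genes Gp1bb (log2 fold change 3.06 ± 0.76, adjusted p = 0.00316) and Itga2b (1.29 ± 0.32, adjusted p = 0.00295) were among them, and Gp9, Gp5, Gp6, Treml1 and Tubb1 were among those too low to be tested. Selp, which endothelium also uses, was higher (15.1 CPM at 6 h, against 0.166 CPM in sham hearts, adjusted p = 1.13e-09), as was Itgb3 (log2 fold change 2.79 ± 0.27, adjusted p = 1.94e-08). The platelet subunit gene Gp1ba was lower at 6 h (log2 fold change -0.77 ± 0.28, adjusted p = 0.0279), a call lost without any 1 of the 3 libraries of 6 h and without sham replicates 2 or 3, with adjusted p up to 0.107, and its call at 12 h was lost under 10 of the 33 alternatives. The summed level of the 14 markers was 40.2 to 51.8 CPM at 6 h and 27.5 to 36.5 CPM at 12 h, against 15.8 to 20.4 CPM in sham hearts. Selp and Itgb3 were the 2 called higher at 6 and 12 h. Without them the other 12 summed to 12.5 to 18.5 CPM in sham hearts and 18.1 to 23.7 CPM at 3 h. At 6 h the other 12 summed to 13.95 to 17.3 CPM, and at 12 h to 14.2 to 16.04 CPM. The 2 genes were left out after their values were seen, so the lower sum followed from that choice and is no measure of platelets.

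Cxcl12, the homeostatic ligand of Cxcr4, was per length the most abundant of the 8 genes in sham hearts and had the smallest change of the 7 called at 12 h. It had 356, 281 and 264 CPM at 12 h, against 200.2, 200.1 and 180 CPM in sham hearts. The ranges were apart, and the change was 0.63 ± 0.14 (adjusted p = 0.00137). At 6 h it had 242, 215 and 256 CPM, all above sham, with a change of 0.30 ± 0.14 that did not pass (adjusted p = 0.0870), but did with only those 2 groups in the fit (0.0266) and without 12 h replicate 1 (0.0499). After ischemia alone it had 153, 134 and 179 CPM, all below sham, and the difference of -0.32 ± 0.14 did not pass (adjusted p = 0.542). From 0.5 to 3 h the libraries ran from 152 to 212 CPM and overlapped sham.

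Cxcl16, whose membrane form is shed by Adam10, differed little between groups beside their spread. Group means ran from 9.46 ± 2.10 CPM at 3 h to 12.7 ± 0.64 CPM at 6 h, with 12.0 ± 0.37 CPM in sham hearts. Every group overlapped the next in the order of means. The largest difference from sham was that of 3 h, -0.34 ± 0.18 (adjusted p = 0.142), which passed only without 3 h replicate 1 (-0.54, adjusted p = 0.0320).

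Per length, in the authors' RPKM, the leading chemokine transcript of the heart differed by time. In sham hearts Cxcl12 led with 16.9 ± 1.57 RPKM, followed by Pf4 (10.3 ± 1.28) and Cxcl16 (2.84 ± 0.18), and Cxcl1 had 0.981 ± 0.68. Cxcl1 led at 1.5 h (19.9 ± 1.86 RPKM) and 3 h (18.9 ± 0.82), and Cxcl5 led at 6 h with 48.9 ± 18.6 RPKM. Cxcl5 alone held 37.9% of the summed RPKM of the 8 genes at 6 h, against 0.0813% in sham hearts. At 12 h Cxcl12 led again (32.4 ± 7.14 RPKM), with Cxcl5 at 22.3 ± 4.73 and Pf4 at 21.4 ± 3.23, the last pair differing by less than their SDs.

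**Figure D3:**
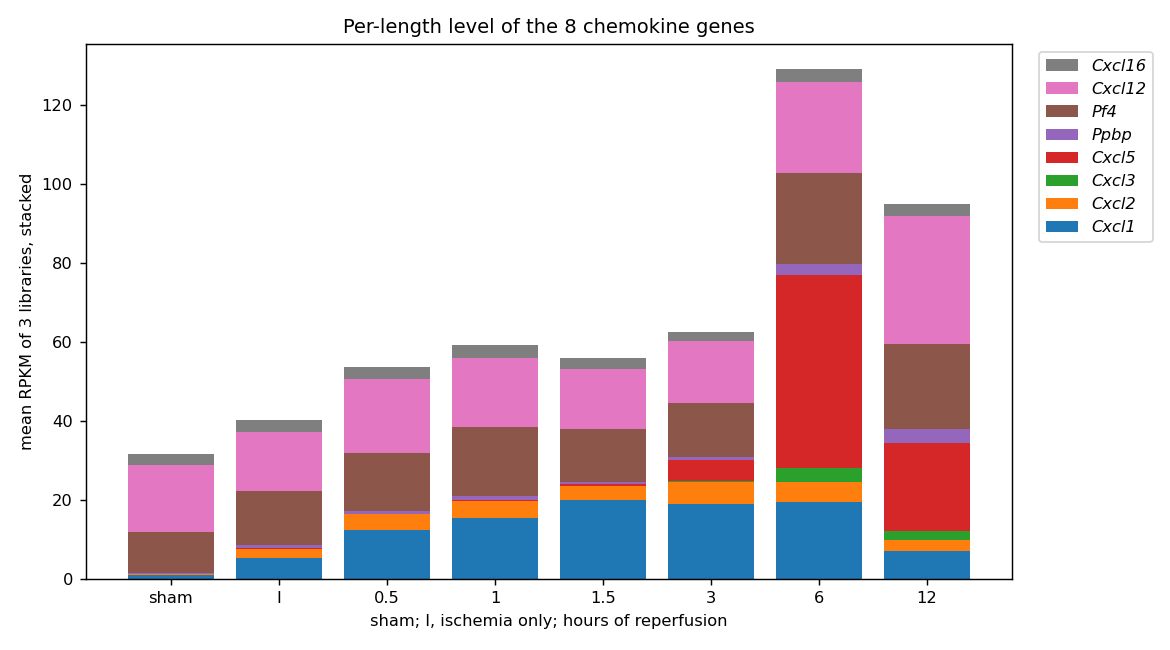
Mean RPKM of 3 libraries, stacked over the 8 genes (vertical axis), for sham, ischemia alone (I) and each reperfusion time in hours; no error is drawn. Cxcl12 and Pf4 make up most of the sham bar, Cxcl1 is the largest segment at 1.5 and 3 h, and Cxcl5 is the largest at 6 h (48.9 RPKM).

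Between neighbouring times, the calls lay at the late steps. From 1.5 to 3 h 2 of the 8 genes rose, Cxcl3 and Cxcl5 (5.36% of all genes were called higher), and from 3 to 6 h 5 rose (14.7%). The 5 were Cxcl3, Cxcl5, Ppbp (2.04 ± 0.40, adjusted p = 0.000641), Pf4 (0.69 ± 0.21, adjusted p = 0.0172) and Cxcl12 (0.46 ± 0.14, adjusted p = 0.0183). Pf4 at this step was lost with only 2 groups in the fit (adjusted p = 0.0614) and without 3 h replicate 2 (0.0567), 3 h replicate 3 (0.0867) or 6 h replicate 2 (0.183), and Cxcl12 without 3 h replicate 1 (0.0540), 3 h replicate 3 (0.0607) or 6 h replicate 3 (0.0783). From 6 to 12 h 2 fell, Cxcl1 and Cxcl5 (6.68% of all genes were called lower).

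The 3 early steps called 0 of the 8 genes with edgeR, DESeq2 and limma-voom. They were 0.5 h against ischemia (0.0331% of all genes called, 1871 at an unadjusted p under 0.05), 1 h against 0.5 h (0%, 1003 genes) and 1.5 h against 1 h (0.0661%, 1592 genes). Cxcl1 at 0.5 h, at 27.9 ± 10.7 CPM against 12.9 ± 3.10 CPM after ischemia, differed by 1.11 ± 0.33 without passing (adjusted p = 0.258). Cxcl5 at 1 h, at 1.03 ± 0.06 CPM against 0.311 ± 0.18 CPM at 0.5 h, did not overlap and did not pass (adjusted p = 0.729). With no filter on low counts, edgeR called Cxcl1 and Cxcl2 at the first of these steps and Cxcl5 at the second.

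Of the receptors, Cxcr2 rose late. It had 8.69, 15.2 and 7.60 CPM at 6 h and 4.45, 5.36 and 6.03 CPM at 12 h, against 0.128, 0.342 and 0.400 CPM (2, 5 and 5 reads) in sham hearts. The change was 5.18 ± 0.57 at 6 h (adjusted p = 1.14e-07) and 4.18 ± 0.58 at 12 h (adjusted p = 7.15e-06). At 3 h the libraries were uneven, with 1.33, 0.222 and 2.86 CPM, and the call there (2.37 ± 0.64, adjusted p = 0.00619) was lost with limma-voom (0.0956) and without 3 h replicate 3 (0.104). Cxcr2 was not called after ischemia alone (0.56 ± 0.77, adjusted p = 0.881), where Cxcl1 and Cxcl2 were.

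The receptors of Cxcl12 took other courses. Ackr3, which takes Cxcl12 up without G protein signalling, had 61.2, 45.1 and 28.3 CPM at 6 h and 37.0, 31.4 and 48.2 CPM at 12 h, against 93.9, 102 and 119 CPM in sham hearts. It fell at both times with no overlap, by 1.22 (log2 fold change -1.22 ± 0.22, adjusted p = 8.46e-05) and 1.43 (-1.43 ± 0.22, adjusted p = 3.12e-05). At 1 and 1.5 h its libraries all lay above sham, by 0.63 ± 0.22 at both times, and this did not pass (adjusted p = 0.0601 and 0.0778), except among others with DESeq2 (0.0384 and 0.0441) and with only the 2 groups in the fit (0.0275 and 0.0037). Cxcr4 was called at no time, and its closest was 1 h (0.93 ± 0.32, adjusted p = 0.0650), where DESeq2 called it (0.0365). At 6 h its replicate 3 stood alone at 12.4 CPM beside 4.02 and 4.999 CPM.

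Cxcr6, the receptor of Cxcl16, had 2.53, 2.58 and 3.47 CPM at 12 h, against 1.16, 0.205 and 0.240 CPM in sham hearts, and was called at 12 h (2.36, adjusted p = 0.000839). Its call at 6 h was lost without sham replicate 2 (adjusted p = 0.0732) or 3 (0.0620). Ackr1, which binds many inflammatory chemokines on venular endothelium and red cells, had 1.70, 0.808 and 0.682 CPM at 12 h, against 0.257, 0.205 and 0.160 CPM in sham hearts, and was called at 3, 6 and 12 h. Its 3 h call was lost with no filter and without sham replicate 2, sham replicate 3 or 3 h replicate 1 (adjusted p up to 0.102). Cxcr5 was called at no time, and Cxcr1 (at most 4 reads in any library) and Cxcr3 (at most 9) were too low to be tested. Of the 6 tested, 3 were thus higher and 1 lower than sham at both 6 and 12 h. Of all genes, 24.6% were higher and 22.9% lower at 6 h, and 16.9% and 14.9% at 12 h.

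**Figure D4:**
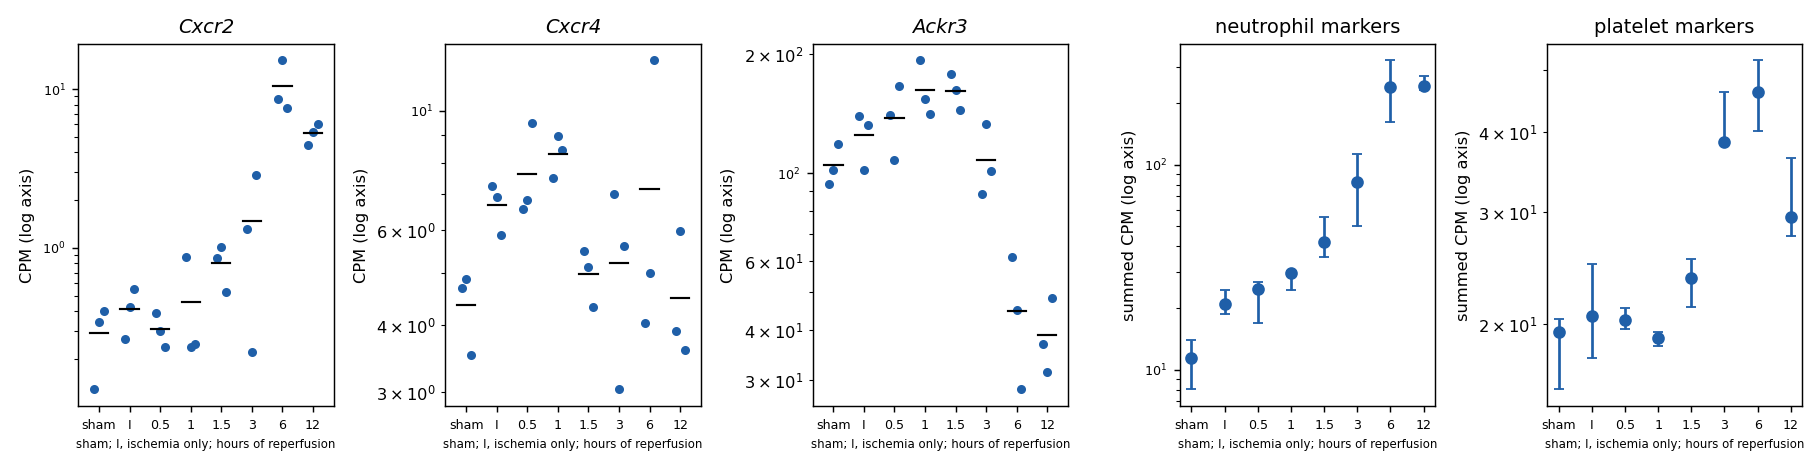
Left 3 panels, CPM on log axes of Cxcr2, Cxcr4 and Ackr3 in each library (points) with group means (bars); right 2 panels, summed CPM of the neutrophil and platelet marker lists, with the median library as a point and the lowest and highest as bars, all from sham to 12 h. Cxcr2 and the neutrophil markers are highest at 6 and 12 h, where Ackr3 is lowest.

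The summed level of neutrophil marker genes was highest at 6 and 12 h, as were Cxcl3 and Cxcl5. It already lay above sham in every library after ischemia alone (18.77 to 24.35 CPM), where Cxcl3 had 0 reads. Of 13 markers tested of 18, the number higher than sham was 0 after ischemia alone, 5 at 0.5 h, 6 at 1 h, 10 at 1.5 h, 11 at 3 h and 13 at both 6 and 12 h, and none was lower. In the same order of times, the shares of all genes called higher were 0.0925%, 7.43%, 7.46%, 4.55%, 18.4%, 24.6% and 16.9%. The early counts were unstable: leaving out 1 library at a time gave 1 to 7 called at 0.5 h, 2 to 7 at 1 h and 4 to 10 at 1.5 h, each lowest without sham replicate 1 (at 0.5 h also without sham replicate 2 or 0.5 h replicate 1), and limma-voom gave 0, 2 and 4. Their summed level was 161 to 322 CPM at 6 h and 231 to 271 CPM at 12 h, against 8.01 to 13.99 CPM in sham hearts. Trem1 and Mmp8, both made by neutrophils, averaged 6.15 and 11.3 CPM at 6 h, against 0.0228 and 0.0267 CPM in sham hearts (adjusted p = 3.43e-08 and 1.48e-08). Ly6g, Mpo, Ngp, Camp and Ltf, mostly granule genes of immature cells, were too low to be tested. Cxcr2 is 1 of the 13, and Mmp8 also stands in the protease list below.

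Within groups the values varied by library. At 6 h replicate 2 had the highest sum (322 CPM, beside 240 and 161 CPM) and the highest Cxcl1, Cxcl2, Cxcl3, Cxcl5, Ppbp, Pf4 and Cxcr2. At 3 h the sums were 113, 50.2 and 82.5 CPM, and Cxcl5 and Cxcl3 stood in the same order of libraries. Lcn2 averaged 40.9 ± 23.0 CPM of that mean sum of 81.8 CPM, and Cxcr2, also on the list, was highest in replicate 3 (2.86 CPM). At 12 h the sums were 241, 271 and 231 CPM. There Cxcl3 was highest in replicate 3, where the sum was lowest, and Cxcl5 in replicate 2, where the sum was highest. At 1.5 h the sums were 35.5, 55.8 and 41.8 CPM. Replicate 2, with the highest sum, had the fewest Cxcl5 reads but the most Cxcl3 reads (6, beside 1 and 0). After ischemia alone the sums were 18.8, 20.8 and 24.3 CPM with no marker called, while Cxcl1 and Cxcl2 were called. The part of neutrophil RNA in the late rises of Cxcl3 and Cxcl5 was not tested. Monocyte markers also moved, with 10 of 10 tested higher at both 6 and 12 h, whereas of 12 macrophage markers 5 were higher and 3 lower at 6 h, where 24.6% of all genes were higher and 22.9% lower. At 6 h endothelial markers had 6 higher and 1 lower of 12, fibroblast markers 3 and 6 of 10, smooth muscle and pericyte markers 3 and 3 of 9, and cardiomyocyte markers 0 and 3 of 10, several of them near those shares. The only lung marker that could be tested, Ager, had 0.843, 0.814 and 2.67 CPM at 3 h, against 0.193, 0.205 and 0.480 CPM in sham hearts. It was higher at 3 h (log2 fold change 2.31 ± 0.58, adjusted p = 0.00346), a call lost without 3 h replicate 3 (0.0661), and was not called at 6 h against sham. All 5 lung markers together summed to 0.843, 0.887 and 2.67 CPM at 3 h, where Sftpc, Sftpa1 and Scgb1a1 had 0 reads. Whether lung RNA had a part in the 3 h values of Cxcl3 and Cxcl5 was not tested.

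Genes on a list of inducing cytokines and NF-kappaB factors were also higher. That list also holds NF-kappaB inhibitors such as Nfkbia and Tnfaip3, so its counts are not counts of inducers alone. Il1a, Il17a and Il17c were too low to be tested. Of 17 tested inducing cytokines and NF-kappaB genes, 3 were higher than sham after ischemia alone, 8 at 0.5 h, 9 at 1 h, 11 at 1.5 h, 16 at 3 h, 14 at 6 h and 10 at 12 h, and none was lower. The shares of all genes called higher at these times were 0.0925%, 7.43%, 7.46%, 4.55%, 18.4%, 24.6% and 16.9%. Leaving out 1 library at a time gave 0 to 4 called after ischemia alone, 4 to 9 at 0.5 h and 4 to 10 at 1 h, the last lowest without sham replicate 1, and limma-voom gave 0, 5 and 7. Il6 averaged 3.19 CPM after ischemia alone and 23.5 CPM at 1.5 h, against 0.0214 CPM (1 read) in sham hearts (adjusted p = 0.00962 and 1.93e-07). Nfkbiz, coding for a nuclear regulator of NF-kappaB, was 1.88 ± 0.36 higher after ischemia alone (adjusted p = 0.0266), and Il1b, which drives Cxcl1 and Cxcl2 in many cells, was 5.86 ± 0.54 higher at 6 h (adjusted p = 9.42e-09). The ischemia calls of Il6, Il1b and Nfkbiz were each lost with limma-voom and without sham replicate 1 or 2. Leaving out ischemia replicate 3 removed the calls of Nfkbiz (adjusted p = 0.317) and Il1b (0.102), but not that of Il6. With sham replicate 3 left out, Il6 and Il1b missed the threshold (0.0729 and 0.179). Il1b missed it too with duplicates removed (0.202) and with ischemia replicate 2 left out (0.143). Of the 33 alternatives, 4 lost Il6, 8 lost Il1b and 4 lost Nfkbiz. From 6 to 12 h 7 of the 17 fell, where 6.68% of all genes were called lower. Il6 fell by 1.51 (log2 fold change -1.51 ± 0.41, adjusted p = 0.0171).

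Chemokine messages are short-lived, and a list of genes for proteins that destroy or stabilise them was also read. Of 11 tested, 1 was higher after ischemia alone, 5 at 0.5 h, 4 at 1 h, 5 at 1.5 h, 8 at 3 h, 9 at 6 h and 4 at 12 h, beside the same shares of all genes, and from 6 to 12 h 6 of the 11 fell (6.68% of all genes). The call after ischemia alone was that of Zfp36, lost without sham replicate 1 (adjusted p = 0.112), 2 (0.0641) or 3 (0.0729) or ischemia replicate 3 (0.115). Leaving out 1 library at a time gave 2 to 5 at 0.5 h, lowest without 0.5 h replicate 3, and 3 to 5 at 1.5 h, lowest without any 1 library of sham or 1.5 h. Zfp36, whose product tristetraprolin binds AU-rich messages and speeds their decay, averaged 496 CPM at 1 h, against 51.2 CPM in sham hearts (3.28 ± 0.29, adjusted p = 3.3e-07). Zc3h12a, which codes for the RNase regnase-1, was highest over sham at 3 h (2.61 ± 0.30, adjusted p = 8.45e-07).

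Among 10 tested genes for proteases and proteoglycans that cut or hold chemokines, 5 were higher and 3 lower at 6 h (24.6% and 22.9% of all genes), and 6 higher and 3 lower at 12 h (16.9% and 14.9%). Without 6 h replicate 2 the 6 h calls numbered 5 in place of 8. The syndecan gene Sdc4 averaged 112 CPM at 3 h, against 12.5 CPM in sham hearts (3.16 ± 0.26, adjusted p = 8.35e-09), and Dpp4, whose product clips Cxcl12, averaged 1.56 CPM at 6 h, against 5.32 CPM in sham hearts (-1.77 ± 0.37, adjusted p = 0.000464). Of the other CXC chemokines, Cxcl9, Cxcl10 and Cxcl14 were tested and Cxcl11, Cxcl13, Cxcl15 and Cxcl17 were too low. Cxcl9, an interferon-induced ligand of Cxcr3, was lower at 6 h (-1.47 ± 0.41, adjusted p = 0.00475) and 12 h (-1.48 ± 0.40, adjusted p = 0.00682). Cxcl10 (1.88 ± 0.67, adjusted p = 0.0240) and Cxcl14 (0.65 ± 0.26, adjusted p = 0.0388) were higher at 6 h. The Cxcl10 call was lost with limma-voom (0.126), without sham replicate 1, 2 or 3, and without 6 h replicate 1 (0.390). That of Cxcl14 was lost with library totals alone (0.0557), without sham replicate 2 or 3, and without 6 h replicate 1, 2 or 3 (adjusted p up to 0.171).

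Over the 24 libraries, which share their normalization and the same time course, Pearson's r of log2 CPM was 0.90 between Cxcl1 and Cxcl2 and 0.94 between Cxcl3 and Cxcl5. Between the pairs it was lower, 0.27 for Cxcl1 with Cxcl3 and 0.45 for Cxcl1 with Cxcl5. The gene most like Cxcl1 was Il6 (r = 0.94), followed by Egr3 and Socs3, and Il6 (0.94) was also most like Cxcl2. Pak6 was most like Cxcl3 (0.98), Bcr most like Cxcl5 (0.98), and Efhd2 was among the 3 most like genes of both. Ccl6 was most like Ppbp (0.90), Zfp330 most like Pf4 (0.85), Usp20 most like Cxcl12 (0.87) and Aftph most like Cxcl16 (0.67). These names depend on the measure: for Cxcl2, Ppbp, Pf4 and Cxcl16, none of the 3 nearest genes was among the 3 nearest by Spearman's rho or over the 8 group means, and Egr3 led for Cxcl1 over group means.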

How the data were processed

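Hearts were flash-frozen, RNA was extracted with Trizol, and Illumina TruSeq libraries were built from 1 ug, per the labels' protocols. The authors deposited 1 table per library which, per the file headers, holds whole-number read counts per Ensembl gene (duplicates and multiply mapped reads kept or removed) and RPKM. The headers are those of the R package dupRadar. The submitters' processing notes name mm10. Aligner, counter, strand setting and annotation release: not given in the sources used here. The authors' RPKM divides by 18194893 to 21840469 reads per library, more than the counted reads.

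The members and gene lists were chosen with earlier results of these data known. Symbols matched 45143 of 46078 IDs (98.0%). The main input was the deposited count of uniquely mapped reads, duplicates included. One edgeR 4.0.16 model (R 4.3.3) covered the 24 libraries, with a term for each group, no covariate, and TMM factors between 0.858 and 1.16. After filterByExpr (10 reads minimum, 15 in total), 15128 genes were left. The residual degrees of freedom were 16, the common biological variation 0.156, and the code was first tested on simulated data. Contrasts were 7 against sham and 6 against the time before, each adjusted by Benjamini-Hochberg, and 1 test asked for any change. The SE follows from the log2 fold change and the F statistic. Where sham had 1 to 3 reads, a CPM ratio with its exact 95% interval is given instead of a fold. Without molecular identifiers, reads are not independent molecules, and intervals and floors reflect counting error alone. Replicate libraries were not copies of each other: over genes, chi-square per degree of freedom ran from 7.28 to 66.6.

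Named were all members, all listed receptors, at most the 3 called genes of largest change per other list and comparison, and per member the 3 genes of highest Pearson's r of log2 CPM (prior count 2) with a mean of at least 1 CPM. Alternatives were DESeq2 1.42.0, limma-voom (limma 3.58.1), RLE factors, library totals alone, no filter, duplicates removed, multiply mapped reads included, a replicate block, only the 2 groups compared, and each library left out in turn.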

Additional observations from a re-analysis of the deposited data

How the results depend on the processing

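No member change that was called, in the main fit or in the alternative, reversed its sign. Sign changes where neither fit called the gene were not counted. The number of the 8 genes called stayed within 1.5 times of the reported count except in these cases. With limma-voom it was 0 for ischemia against sham, 2 for 1 h against sham and 1 for 3 h against 1.5 h. With duplicates removed it was 2 for 1 h against sham and 1 for 3 h against 1.5 h, and with only the 2 groups in the fit 1 for 3 h against 1.5 h, where Cxcl3 was not tested. With no filter it was 2 for 0.5 h against ischemia, 1 for 1 h against 0.5 h and 4 for 12 h against 6 h. For the other cases the cause was not tested. Leaving out each library in turn gave 1 to 2 genes for ischemia against sham, 2 to 2 at 0.5 h, 2 to 4 at 1 h, 3 to 3 at 1.5 h, 4 to 5 at 3 h, 6 to 7 at 6 h and 6 to 7 at 12 h. For the steps between times it gave 0 to 0 in the first 3, 1 to 2 from 1.5 to 3 h, 3 to 5 from 3 to 6 h and 1 to 2 from 6 to 12 h, and any change gave 7 to 7. The replicate numbers share only a name, since the deviations of same-numbered libraries had a mean correlation of -0.00735 over 84 pairs. With the replicate block, 2 genes were called for ischemia against sham and 3 at 1 h, where Pf4 missed the threshold (adjusted p = 0.0537). Depth limits Cxcl3 up to 1.5 h and Cxcl5 up to 0.5 h, where they lie at or near the floor of 3 reads per library.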
